A study of Mus musculus with 23 samples.

Results

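The effect of oxaliplatin on transcript levels was compared between tibialis anterior muscle, a fast hindlimb muscle, and the hypothalamus, a region at the base of the brain that sets appetite and hormone release. The comparison used 16 of the 23 RNA-seq libraries of the series, all from C57BL/6 mice given vehicle or oxaliplatin at 10 mg/kg, with tissue taken after 8 weeks. Muscle contributed 5 oxaliplatin libraries (mice 1 to 5) and 4 vehicle libraries (mice 1 to 4), and hypothalamus contributed 4 oxaliplatin libraries (mice 2 to 5) and 3 vehicle libraries (mice 1, 2 and 4). For each gene the log2 fold change of oxaliplatin over vehicle was taken within each tissue, and the value tested was the muscle effect minus the hypothalamus effect. The sources used here do not give the age or sex of the mice or the dosing schedule, and they do not say that a mouse number marks 1 animal in both tissues.

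The muscle library of oxaliplatin mouse 5 has a treatment entry that reads vehicle. It was used as oxaliplatin, which its title, the name of its library and the number of mice stated per group all give. Without it 11 differences were still called, 10 of them the same, with Ly6c1 lost (adjusted p = 0.0545). Set to vehicle, it left 4 called differences (Lrg1, Vegfa, Flt1 and Abcc9) and 0 genes called in muscle by edgeR, with 701 at an unadjusted p under 0.05. Libraries came from different kits in the 2 tissues (Clontech SMARTer for muscle, RiboErase for hypothalamus), so a level was compared only within a tissue, and a difference of effects compares changes and not levels.

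Oxaliplatin is a platinum drug that crosslinks DNA and is given for colorectal cancer. It is known for peripheral nerve damage, and loss of weight and muscle occurs during treatment. Capillaries of the brain are lined by endothelial cells that form the blood-brain barrier and are covered by pericytes, while muscle capillaries are more permeable. Endothelial cells of both tissues answer circulating hormones and cytokines, among them glucocorticoids, which act on target genes through a nuclear receptor, and the ligand VEGF, which acts through the receptors Flt1 and Kdr.

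Total counts per library were 22427757 to 32151410 in muscle. In hypothalamus the 4 oxaliplatin libraries (23553691 to 26426364) were all below the 3 vehicle libraries (27345654 to 28529357). Summed levels of 16 skeletal muscle fibre markers were 186640 to 248483 CPM (read counts scaled to library size) in muscle, and the 14 of them listed in hypothalamus summed to 28.5 to 44.7 CPM. The 14 neuron markers summed to 4428 to 5728 CPM in hypothalamus, and the 7 of them listed in muscle to 4.40 to 8.85 CPM. Variation between libraries of a group, as a biological coefficient of variation, was 22.6% in muscle and 15.6% in hypothalamus. Nothing in the labels says how replicates were housed or processed, so p-values measure the spread between these libraries.

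The hypothalamus library of oxaliplatin mouse 5 stood apart from the other 3. It was the lowest of the 4 oxaliplatin libraries for 25 of the 28 genes called higher in hypothalamus, with a median of 1.04 log2 units above the vehicle mean against 1.45 to 1.63 in mice 2, 3 and 4. Counts of called genes are therefore given with it and without it. The 28 genes were called from these same libraries, and mouse 5 was singled out by its weaker effect in them. The omission was thus picked on the effect itself, and calls gained only without this library are a description.

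At an adjusted p under 0.05, 11 of 13551 genes tested in both tissues differed in their response, which is 0.0812% of them. The effect was higher in hypothalamus for 8 genes (0.059%) and higher in muscle for 3 (0.0221%). The first group held the secreted proteins Lrg1, Vwf and Vegfa and the surface proteins Flt1 and Ly6c1. It also held Abcc9, a potassium channel gene of pericytes and muscle fibres, and Cdk19 and Smtnl2, which fell in muscle. The second group held the glycolytic regulator Pfkfb3, the clock repressor Nr1d1 and the nutrient sensing gene Rragb. An unadjusted p under 0.05 was reached by 1252 genes (9.24%), 753 with the higher effect in hypothalamus (5.56%) and 499 with the higher effect in muscle (3.68%).

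Calls are those of edgeR where no other tool is named. The DESeq2 Wald test called 167 differences (1.23%) and limma-voom 13 (0.0959%). Among the genes described further on, DESeq2 added Kdr, Pgf, Kcnj8, Amd1, Klk8, St6galnac4, Pecam1, Eng, Cxcl12, Lcn2, Col4a1, Sult1a1, Slc2a1, Car9, Cry1, Nqo1, Map3k6 and Dusp1 (adjusted p = 0.000752 to 0.0441). Limma-voom added St6galnac4 and Amd1 and did not call Vwf, Ly6c1 or Rragb. With each mouse number of an arm taken as 1 animal and fitted as a fixed block, edgeR called 0 differences (855 at an unadjusted p under 0.05).

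Without the hypothalamus library of oxaliplatin mouse 5 the difference was called for 141 genes (1.04%), 96 with the higher effect in hypothalamus (0.711%) and 45 with the higher effect in muscle. All 11 genes were among the 141. The count fell to 5, 4 and 3 without hypothalamus vehicle mouse 1, 2 and 4, and to 5 and 6 without hypothalamus oxaliplatin mouse 3 and 4. It rose to 23 without muscle vehicle mouse 2 and was 9 to 16 without any other muscle library.

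**Figure D1:**
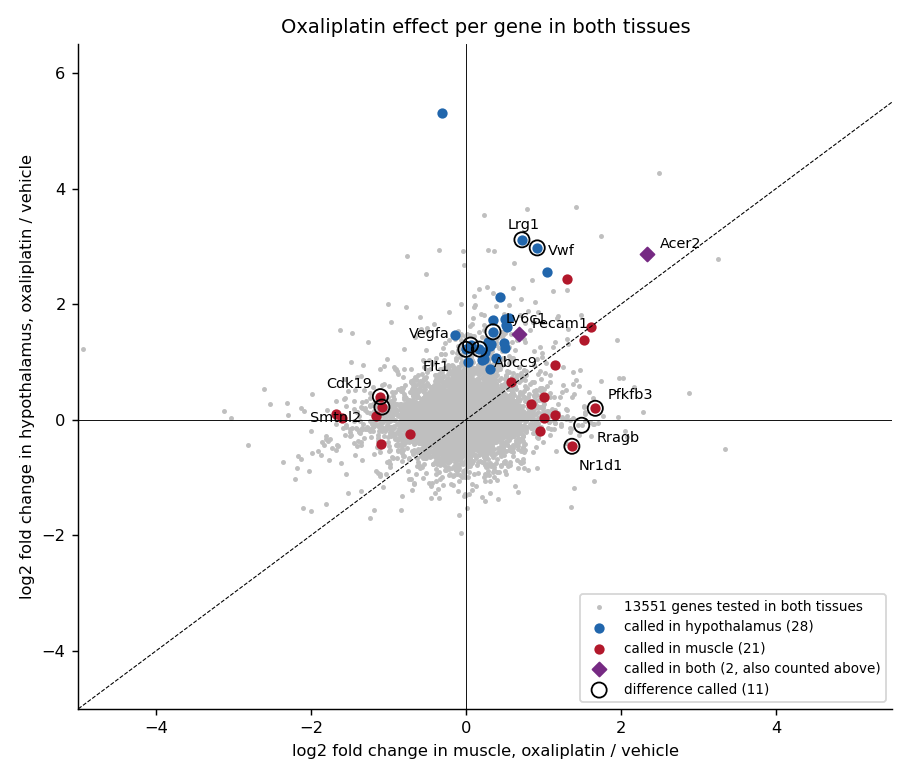
Log2 fold change of oxaliplatin over vehicle in muscle (x axis) and hypothalamus (y axis) for the 13551 genes tested in both; coloured points passed the test in a tissue, rings mark the 11 genes whose difference between tissues was called, and the dashed line is equality. The 28 genes called in hypothalamus have a median of 1.40 there and 0.35 in muscle, and Acer2 and Pecam1 are higher in both tissues.

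Promoter sequences are shown for 3 of the 11 genes, Lrg1, Flt1 and Nr1d1, because they stand for the 2 directions of the difference and their windows hold a motif that was searched for. Each is the RefSeq sequence before the gene start (GRCm38.p6, minus strand, 5′ to 3′), without bases that lie in an exon. Capitals mark ACGTG, the core of a hypoxia response element, in Lrg1 (on the opposite strand, first base at -226) and Nr1d1 (-27), and the cyclic AMP response element TGACGTCA in Flt1 (-81). Positions are counted from the RefSeq gene start, which is base 56121946 for Lrg1, 147726011 for Flt1 and 98775377 for Nr1d1. For Lrg1 and Nr1d1 it differs from the start in the GENCODE annotation, whose coordinates are given with each gene. The Lrg1 window is chr17:56122002-56122196, the Flt1 window chr5:147726012-147726261 and the Nr1d1 window chr11:98775378-98775627.
Lrg1: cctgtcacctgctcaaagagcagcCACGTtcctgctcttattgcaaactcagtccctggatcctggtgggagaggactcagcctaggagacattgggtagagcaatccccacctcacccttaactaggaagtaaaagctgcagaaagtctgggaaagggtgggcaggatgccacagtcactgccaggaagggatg
Flt1: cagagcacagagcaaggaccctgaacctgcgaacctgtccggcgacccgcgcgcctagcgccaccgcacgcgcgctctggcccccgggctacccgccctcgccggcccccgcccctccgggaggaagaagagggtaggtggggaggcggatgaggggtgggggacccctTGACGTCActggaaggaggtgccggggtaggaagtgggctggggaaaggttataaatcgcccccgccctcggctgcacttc
Nr1d1: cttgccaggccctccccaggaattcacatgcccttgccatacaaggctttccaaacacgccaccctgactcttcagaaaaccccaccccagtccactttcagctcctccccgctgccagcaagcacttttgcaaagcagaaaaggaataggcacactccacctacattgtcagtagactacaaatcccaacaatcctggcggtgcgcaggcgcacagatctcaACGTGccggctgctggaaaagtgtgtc

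A set of 8 motifs was searched on both strands of the 250 bases before the start of 10035 tested genes with a promoter entry. ACGTG was found in 21.9% of them and in 4 of the 9 difference genes that had an entry (Lrg1, Nr1d1, Pfkfb3 and Rragb). TGACGTCA was found in 2.72% of all promoters and in 1 of the 9. The E-box CACGTG, which contains ACGTG, was found in 8.55% and in Rragb alone of the 9. For the other motifs the share of all promoters was 0% for the full palindromic glucocorticoid response element, 10.7% for the hexamer AGAACA that it contains, 1.77% for the D-box TTATGNAA, 2.01% for the FOXO motif TGTTTAC and 5.85% for the STAT motif TTCNNNGAA. These are matches of letters, and no binding was measured.

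Lrg1 (chr17:56119678-56122001), a secreted acute phase glycoprotein that acts on TGF-beta signalling in endothelium, had the largest called difference. In hypothalamus it was at 0.410, 0.972 and 0.443 CPM in vehicle mice 1, 2 and 4 and at 5.72, 5.88, 4.96 and 4.61 CPM in oxaliplatin mice 2 to 5. The groups did not overlap, and the log2 fold change was 3.11 ± 0.31 (SE; adjusted p = 0.00738). In muscle the 4 vehicle libraries had 16.1, 22.5, 22.1 and 19.9 CPM and the 5 oxaliplatin libraries 34.9, 35.8, 32.7, 25.3 and 37.5 CPM, again without overlap, with a log2 fold change of 0.72 ± 0.14 (adjusted p = 0.0660). The difference was -2.39 ± 0.30 (adjusted p = 0.00299), and it kept its call without each of the 16 libraries in turn (adjusted p up to 0.0311).

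Vwf (chr6:125546774-125686679) encodes the clotting factor that endothelial cells store and release. Hypothalamus levels were 29.0, 27.3 and 33.8 CPM with vehicle and 252, 311, 252 and 128 CPM with oxaliplatin, mouse 5 having the lowest of the 4. Muscle levels were 8.20, 10.0, 15 and 16.9 CPM with vehicle and 24.7, 25.5, 17.3, 21.3 and 29.6 CPM with oxaliplatin. Neither tissue had an overlap, and the log2 fold change was 2.97 ± 0.30 in hypothalamus (adjusted p = 0.0193) and 0.92 ± 0.22 in muscle (adjusted p = 0.143). The difference of -2.05 ± 0.36 (adjusted p = 0.0391) kept its call without muscle vehicle mouse 1 or 2, muscle oxaliplatin mouse 2 or 5 or hypothalamus oxaliplatin mouse 5, and had an adjusted p of 0.0611 to 0.170 without each of the other 11 libraries.

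Vegfa (chr17:46016993-46032369), the main growth factor of blood vessels, was at 39.2, 33.7 and 32.4 CPM in vehicle hypothalamus and at 97.8, 94.5, 73.6 and 78.0 CPM after oxaliplatin (log2 fold change 1.29 ± 0.13, adjusted p = 0.00738). Muscle had 8.08, 10.8, 8.59 and 7.04 CPM with vehicle and 8.20, 8.17, 9.10, 9.98 and 9.45 CPM with oxaliplatin. The muscle groups overlapped fully, with a log2 fold change of 0.06 ± 0.14. The difference was -1.23 ± 0.20 (adjusted p = 0.0173), with an adjusted p of 0.0993, 0.0877 and 0.0597 without hypothalamus vehicle mouse 2, vehicle mouse 4 and oxaliplatin mouse 3.

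Flt1 (chr5:147561604-147726011) encodes VEGF receptor 1. In hypothalamus it was at 82.8, 80.4 and 90.1 CPM with vehicle and 212, 229, 192 and 152 CPM with oxaliplatin, a log2 fold change of 1.22 ± 0.14 (adjusted p = 0.0136). In muscle it was at 33.5, 48.4, 28.5 and 36.8 CPM with vehicle and 36.2, 34.9, 36.3, 37.2 and 39.0 CPM with oxaliplatin, so that the oxaliplatin libraries lay inside the vehicle range. The difference of -1.22 ± 0.21 (adjusted p = 0.0280) kept its call without any 1 of the 4 muscle vehicle libraries, muscle oxaliplatin mouse 2 or 5 or hypothalamus oxaliplatin mouse 5. Without each of the other 9 libraries the adjusted p was above 0.05, up to 0.146.

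Kdr, the other main VEGF receptor, had a difference of -1.56 ± 0.32 that missed the threshold (adjusted p = 0.0714), with log2 fold changes of 1.80 in hypothalamus and 0.24 in muscle. Without hypothalamus oxaliplatin mouse 5 it was called (-1.72, adjusted p = 0.00741), and over the 16 omissions of a library its adjusted p ran up to 0.208. Pgf, a ligand of Flt1, had a difference of the other sign, 1.29 ± 0.34 (adjusted p = 0.162). Its muscle levels were 1.07, 0.692, 1.61 and 1.05 CPM with vehicle and 3.71, 2.14, 3.20, 2.97 and 3.92 CPM with oxaliplatin, while the hypothalamus groups overlapped.

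Ly6c1 (chr15:75044018-75048830), a membrane-anchored surface protein of endothelial cells and leukocytes, was at 18.6, 18.2 and 21.5 CPM in vehicle hypothalamus and 71.9, 52.4, 60.3 and 38.5 CPM after oxaliplatin. Muscle had 71.3, 89.8, 75.0 and 76.6 CPM with vehicle and 109, 93.1, 99.9, 94.8 and 101 CPM with oxaliplatin. The groups did not overlap in either tissue, and the log2 fold change was 1.52 ± 0.19 in hypothalamus (adjusted p = 0.0297) and 0.35 ± 0.11 in muscle (adjusted p = 0.286). The difference was -1.17 ± 0.21 (adjusted p = 0.0404), and the adjusted p was above 0.05, up to 0.170, without each of 13 libraries, the exceptions being muscle vehicle mice 1 and 4 and hypothalamus oxaliplatin mouse 5. Ly6c1 has a near-identical neighbour, Ly6c2, and how reads of both were shared out is uncertain.

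Abcc9 (chr6:142587862-142702315) encodes the sulfonylurea receptor subunit of the ATP-sensitive potassium channel of pericytes and of muscle fibres. Hypothalamus levels were 11.6, 10.5 and 12.4 CPM with vehicle and 26.9, 31.4, 27.4 and 21.4 CPM with oxaliplatin (log2 fold change 1.22 ± 0.14, adjusted p = 0.0136). Muscle levels, 101, 99.9, 111 and 131 CPM with vehicle and 124, 121, 120, 127 and 133 CPM with oxaliplatin, overlapped. The difference was -1.05 ± 0.17 (adjusted p = 0.0205). It lost its call without hypothalamus vehicle mouse 1, 2 or 4 (adjusted p = 0.0895, 0.132 and 0.0740) and without hypothalamus oxaliplatin mouse 3 or 4 (0.0599 and 0.0617). Kcnj8, a pore subunit of ATP-sensitive potassium channels, rose in hypothalamus (log2 fold change 1.61 ± 0.20, adjusted p = 0.0193) and had a difference of -1.08 ± 0.28 (adjusted p = 0.145).

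**Figure D2:**
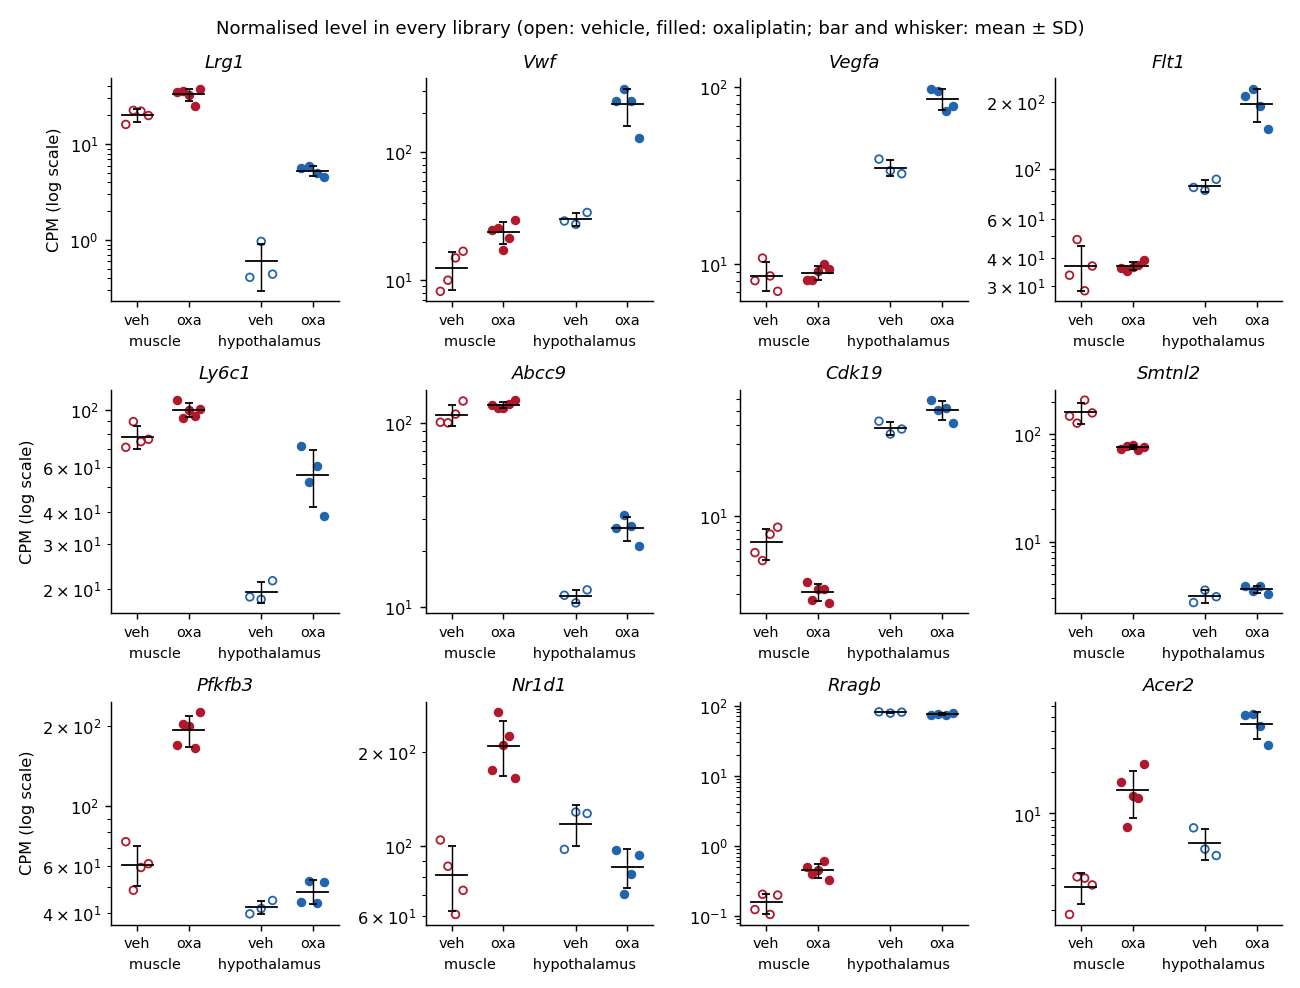
Normalised level in CPM on a log axis in every library for the 11 genes whose difference was called and for Acer2; open circles are vehicle, filled circles oxaliplatin, red muscle, blue hypothalamus, and lines and whiskers the mean ± SD. Vegfa and Flt1 overlap between groups in muscle and do not overlap in hypothalamus, and Pfkfb3 stands at 165 to 226 CPM in oxaliplatin muscle against 48.5 to 73.7 CPM with vehicle; levels are not to be compared between tissues.

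Cdk19 (chr10:40339564-40483818), a kinase of the Mediator complex, fell in muscle. It was at 5.66, 5.01, 7.51 and 8.37 CPM with vehicle and 3.61, 2.74, 3.25, 3.25 and 2.61 CPM with oxaliplatin, without overlap, a log2 fold change of -1.10 ± 0.19 (adjusted p = 0.0443). Hypothalamus had 42.7, 35.1 and 37.9 CPM with vehicle and 59.1, 50.4, 52.4 and 41.7 CPM with oxaliplatin, where mouse 5 lay inside the vehicle range (log2 fold change 0.40 ± 0.13, adjusted p = 0.365). The difference was -1.50 ± 0.23 (adjusted p = 0.0138), and 0.0818 and 0.0740 were the adjusted p-values without hypothalamus vehicle mouse 2 and 4.

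Smtnl2 (chr11:72389164-72411713), a smoothelin-like protein, also fell in muscle, from 147, 127, 208 and 158 CPM with vehicle to 73.4, 77.3, 79.3, 71.5 and 75.6 CPM with oxaliplatin. The oxaliplatin libraries lay close together and below every vehicle library, with a log2 fold change of -1.08 ± 0.14 (adjusted p = 0.0127). In hypothalamus the levels were 2.70, 3.53 and 3.06 CPM with vehicle and 3.83, 3.50, 3.84 and 3.25 CPM with oxaliplatin, which overlapped. The difference was -1.30 ± 0.20 (adjusted p = 0.0138), and the adjusted p was 0.0792 and 0.0740 without hypothalamus vehicle mouse 1 and 4. Amd1, which encodes a key enzyme of polyamine synthesis and has a near-identical copy, Amd2, fell in muscle as well (log2 fold change -1.68 ± 0.28, adjusted p = 0.0486). Its difference, -1.77 ± 0.36, missed the threshold (adjusted p = 0.0611).

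Pfkfb3 (chr2:11471433-11554077) encodes the enzyme that makes fructose 2,6-bisphosphate, an activator of glycolysis. Muscle levels were 73.7, 48.5, 59.0 and 61.0 CPM with vehicle and 170, 202, 200, 165 and 226 CPM with oxaliplatin, a log2 fold change of 1.67 ± 0.15 (adjusted p = 0.00106). Hypothalamus levels were 39.6, 41.5 and 44.5 CPM with vehicle and 43.9, 52.5, 43.5 and 52.1 CPM with oxaliplatin. The muscle groups were far apart and the hypothalamus groups overlapped. The difference was 1.47 ± 0.19 (adjusted p = 0.00299), and it kept its call without each of the 16 libraries in turn (adjusted p up to 0.0311). It was 0.78 (adjusted p = 0.808) with muscle oxaliplatin mouse 5, at 226 CPM, set to vehicle.

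Nr1d1 (chr11:98767932-98775333) encodes REV-ERB alpha, the nuclear receptor that represses Arntl in the circadian clock. In muscle it rose from 105, 86.3, 60.6 and 72.3 CPM to 175, 268, 211, 225 and 165 CPM (log2 fold change 1.37 ± 0.19, adjusted p = 0.0211). In hypothalamus it was at 97.7, 128 and 127 CPM with vehicle and at 97.1, 70.6, 81.3 and 93.6 CPM with oxaliplatin, where every oxaliplatin library was below the vehicle libraries by as little as 0.6 CPM and the test was not passed (log2 fold change -0.46 ± 0.14, adjusted p = 0.347). The difference was 1.83 ± 0.26 (adjusted p = 0.00703) and kept its call without each of the 16 libraries (adjusted p up to 0.0431), and was 1.63 (adjusted p = 0.116) with muscle oxaliplatin mouse 5 set to vehicle. Exons of Nr1d1 overlap those of Thra on the opposite strand over 263 bases, 8.55% of its exon bases, and the sources used here do not say whether counting used strand. Thra had log2 fold changes of 0.37 in muscle and 0.50 in hypothalamus, with a difference of -0.13.

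Rragb (chrX:153139981-153171943), a Rag GTPase that signals amino acid supply to mTORC1, was called at a very low level in muscle. Muscle values were 0.123, 0.204, 0.105 and 0.198 CPM with vehicle and 0.492, 0.397, 0.450, 0.600 and 0.327 CPM with oxaliplatin. All muscle vehicle counts were under the filter's minimum, so Rragb was kept for testing in muscle through its oxaliplatin libraries. The muscle change alone did not pass the test (log2 fold change 1.49 ± 0.41, adjusted p = 0.212). Hypothalamus values were 81.3, 78.0 and 80.4 CPM with vehicle and 73.3, 76.5, 72.2 and 77.2 CPM with oxaliplatin, slightly lower and without overlap (log2 fold change -0.10 ± 0.08, adjusted p = 0.676). The difference of 1.59 ± 0.27 (adjusted p = 0.0265) had an adjusted p above 0.05, up to 0.0961, without each of 9 libraries: muscle vehicle mice 1 and 3, muscle oxaliplatin mice 1 and 4, all 3 hypothalamus vehicle mice, and hypothalamus oxaliplatin mice 3 and 4.

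Klk8 and St6galnac4 came next among genes with the higher effect in muscle, with differences of 2.71 ± 0.51 (adjusted p = 0.0536) and 1.16 ± 0.22 (adjusted p = 0.0546). Klk8, a secreted serine protease, was at 0.198 to 0.448 CPM in vehicle muscle and 0.623 to 1.40 CPM in oxaliplatin muscle. Its muscle vehicle counts reached below the filter's minimum, so it was kept for testing in muscle through its oxaliplatin libraries. In hypothalamus it was at 0.889 to 1.59 CPM with vehicle and 0.362 to 0.769 CPM with oxaliplatin. The groups did not overlap in either tissue and lay in opposite order, as for 6 genes in all (0.0443%) that were higher in muscle and lower in hypothalamus with no overlap. The reverse order was found for 8 genes (0.059%). Exons of Klk8 overlap a transcript of the opposite strand over 24.8% of their bases, and those of Icam1, an adhesion gene, over 11.7%.

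Taken alone, muscle had 24 called genes of 14737 tested, 17 higher (0.115%) and 7 lower (0.0475%). Hypothalamus had 28 of 18941, all of them higher (0.148%), and no gene was called lower by edgeR, while 758 were lower at an unadjusted p under 0.05. DESeq2 called 45 lower in hypothalamus and limma-voom 25. Without hypothalamus oxaliplatin mouse 5 the hypothalamus count was 655, 399 higher (2.12%) and 256 lower (1.36%), with all 28 among them. It was 1, 1 and 0 without hypothalamus vehicle mouse 1, 2 and 4, and 6 and 2 without oxaliplatin mouse 3 and 4. In muscle the count was 2 to 17 when 1 library was left out: 3 without vehicle mouse 3, 14 without vehicle mouse 1, and 2, 8, 11, 5 and 8 without oxaliplatin mice 1 to 5.

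The 28 genes called in hypothalamus had a median log2 fold change of 1.40 there and 0.35 in muscle, and 25 of the 28 were above 0 in muscle. All 28 differences were below 0, but these genes were picked for a high hypothalamus value, so the order of the 2 medians is a description. The difference itself was called for 6 of the 28, against 0.0812% of all genes. Of the 14 genes called higher in muscle that were tested in both tissues, 12 were above 0 in hypothalamus, with medians of 1.15 in muscle and 0.53 in hypothalamus. Of the 7 called lower in muscle, 2 were below 0 in hypothalamus. The difference was called for 4 of these 21 genes, against 0.0812% of all genes. The 21 were picked for their muscle effect, which is part of the tested difference, so these counts and medians are a description too. Of all genes, 47.6% were above 0 in muscle and 51.9% in hypothalamus.

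Only Acer2 and Pecam1 were called in both tissues, both higher. Acer2 (chr4:86874396-86934822) encodes an alkaline ceramidase of the Golgi that releases sphingosine from ceramide. Its muscle levels were 1.85, 3.46, 3.39 and 3.03 CPM with vehicle and 16.8, 7.98, 13.5, 12.9 and 22.8 CPM with oxaliplatin (log2 fold change 2.33 ± 0.29, adjusted p = 0.0127). Its hypothalamus levels were 7.87, 5.51 and 4.95 CPM with vehicle and 51.9, 53.1, 43.1 and 31.2 CPM with oxaliplatin (log2 fold change 2.87 ± 0.23, adjusted p = 0.00738). The groups were well apart in both tissues, and the difference of -0.53 ± 0.40 was within its error (adjusted p = 0.758).

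Pecam1 (chr11:106654217-106750628), the endothelial junction protein CD31, was at 48.4, 52.3, 41.4 and 47.7 CPM in vehicle muscle and 84.0, 68.6, 74.3, 69.7 and 82.6 CPM in oxaliplatin muscle. Hypothalamus had 17.6, 16 and 17.2 CPM with vehicle and 56.5, 51.8, 49.9 and 31.8 CPM with oxaliplatin. Pecam1 rose by 0.68 ± 0.11 in muscle (adjusted p = 0.0443) and 1.49 ± 0.18 in hypothalamus (adjusted p = 0.0212) on the log2 scale. The difference, -0.81 ± 0.21, was not called (adjusted p = 0.144). Of the 16 omissions of a library, 1 gave a call, that of hypothalamus oxaliplatin mouse 5 (-0.95, adjusted p = 0.00496). The highest adjusted p was 0.379. The number of genes called in both tissues was 0 without muscle vehicle mouse 3 or 4, muscle oxaliplatin mouse 1, or hypothalamus vehicle mouse 2 or 4, and 5 without hypothalamus oxaliplatin mouse 5. It was 1 without each of the other libraries except hypothalamus oxaliplatin mouse 2, where it stayed at 2.

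Groups that did not overlap and were higher with oxaliplatin in both tissues were found for 51 genes (0.376%), and lower in both for 16 (0.118%). Without overlap in either direction were 3.87% of the genes in muscle (2.08% higher) and 10.7% in hypothalamus (6.18% higher). Among the 51 were Cdkn1a, Depp1, Apold1, Angpt2, Icam1, Ier3, Eng and Errfi1. Cdkn1a, the cell cycle inhibitor p21, had log2 fold changes of 3.25 ± 0.49 in muscle and 2.79 ± 0.60 in hypothalamus (adjusted p = 0.0526 and 0.285), with a difference of 0.47 ± 0.71. Its muscle levels were 5.13 to 9.64 CPM with vehicle and 90.5, 40.4, 33.7, 33.0 and 125 CPM with oxaliplatin. Its hypothalamus levels were 5.27 to 7.42 CPM with vehicle and 55.2, 75.0, 39.0 and 13.3 CPM with oxaliplatin. The library numbered 5 was therefore the highest of the oxaliplatin libraries in muscle and the lowest in hypothalamus. These 2 libraries are not known to be from 1 animal, and the muscle one has the treatment entry that reads vehicle.

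Icam1, an adhesion molecule for leukocytes, had almost equal log2 fold changes of 1.61 ± 0.25 in muscle (adjusted p = 0.0407) and 1.60 ± 0.33 in hypothalamus (adjusted p = 0.187), and the difference was 0.01 ± 0.45. Angpt2, a ligand of the endothelial receptor Tek, rose in muscle by 1.30 ± 0.20 on the log2 scale (adjusted p = 0.0278) and had a log2 fold change of 2.44 ± 0.52 in hypothalamus (adjusted p = 0.237). Depp1, a target of FOXO factors, had log2 fold changes of 2.49 in muscle and 4.27 in hypothalamus (adjusted p = 0.178 and 0.0703). Apold1, an endothelial early response gene, had 1.74 and 3.19 (adjusted p = 0.0899 and 0.155). Across all 13551 genes the 2 effects had a Pearson r of 0.16 and a Spearman rho of 0.11, and 53.7% had the same sign. The points share libraries, and genes are not replicates.

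Pnmt, which makes adrenaline from noradrenaline, and the chemokine Ccl2 rose in muscle by 3.31 ± 0.31 and 2.31 ± 0.33 on the log2 scale (adjusted p = 0.00106 and 0.0211). Neither was tested for the difference. Hypothalamus levels were 0.0342 to 0.0823 CPM for Pnmt and 0 to 0.384 CPM for Ccl2 over the 7 libraries, too few reads for a comparison.

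Endothelial genes were the list with the most called members. Of 23 tested in both tissues, 3 (Flt1, Vwf and Ly6c1) had a higher effect in hypothalamus and none in muscle. Over all genes these shares were 0.059% and 0.0221%. An unadjusted p under 0.05 in the first direction was reached by 15 of 23, against 5.56% of all genes. The difference was below 0 for 21 of 23, with a list median of -0.72 against -0.03 for all genes. DESeq2 called 6 of the 23 (Eng, Flt1, Kdr, Ly6c1, Pecam1 and Vwf) and limma-voom 1 (Flt1), against 1.23% and 0.0959% of all genes. The median log2 fold change was 0.82 in hypothalamus and 0.24 in muscle, and 7 members were called higher in hypothalamus (Eng, Flt1, Ly6c1, Pecam1, Ptprb, Robo4 and Vwf) against 1 in muscle (Pecam1). Of all genes, 0.148% were called higher in hypothalamus and 0.115% in muscle. Without hypothalamus oxaliplatin mouse 5 the difference was called for 7 of 22, against 1.04% of all genes. The hypothalamus effect was then called for 15 of 22, all higher, against 2.12% of all genes. Over the 16 omissions of a library the median difference stayed between -0.80 and -0.63. Of 28 pathway lists, the median difference moved by over 1.5 times without at least 1 library for 24, and the other 4 were the endothelial, glucocorticoid-responsive, hypoxia and cholesterol lists.

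The endothelial list was not uniform. Emcn, Tek and Tie1, the last 2 being the angiopoietin receptor and its partner, had log2 fold changes of 0.02, 0.18 and 0.25 in hypothalamus and -0.03, 0.11 and 0.19 in muscle. Averaged over the list, hypothalamus oxaliplatin mice 2 to 5 stood at 0.94, 1.08, 1.01 and 0.66 log2 units above the vehicle mean, and muscle oxaliplatin mice 1 to 5 at 0.37, 0.29, 0.24, 0.19 and 0.22. Vehicle libraries lay between -0.20 and 0.16, so that all oxaliplatin libraries of both tissues were above all vehicle libraries of their tissue. In bulk tissue a larger number of cells of a type and more RNA per cell cannot be told apart.

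**Figure D3:**
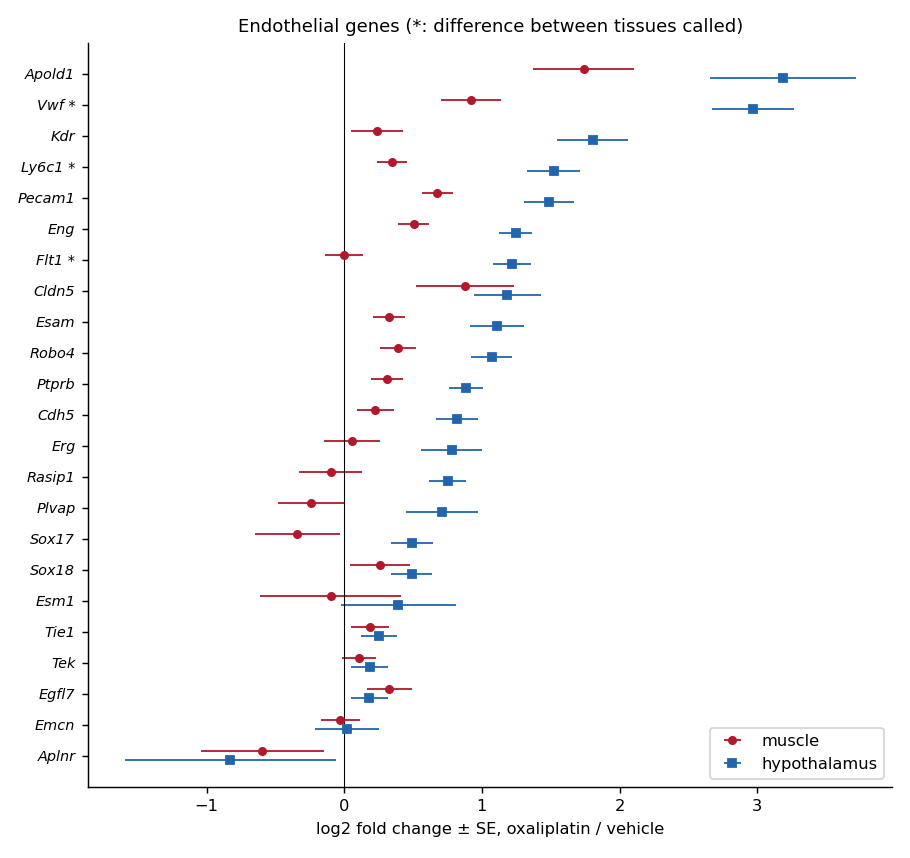
Log2 fold change of oxaliplatin over vehicle, with its SE, for the 23 endothelial genes tested in both tissues, sorted by the hypothalamus value; stars mark the 3 genes whose difference was called. The hypothalamus value is the higher one for 21 of the 23, while Tek, Tie1 and Emcn are near 0 in both tissues.

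Pericyte and smooth muscle genes did not share this pattern as a list. Their median difference over 15 genes was 0.08 (-0.07 to 0.18 when 1 library was left out), with medians of 0.30 in muscle and 0.18 in hypothalamus, although Abcc9 and Kcnj8 rose in hypothalamus. Higd1b, another member, rose in muscle (log2 fold change 1.52 ± 0.19, adjusted p = 0.0127). In hypothalamus it had 1.39 ± 0.34 (adjusted p = 0.274), and the difference was 0.13 ± 0.38. Of 20 angiogenic ligands and receptors, 2 (Vegfa and Flt1) had a called difference, against 0.0812% of all genes. The median difference of this list was -0.28. It was between -0.16 and -0.05 without muscle vehicle mouse 4, muscle oxaliplatin mouse 1 or 2, or hypothalamus oxaliplatin mouse 2 or 3, and between -0.14 and -0.06 by limma-voom, with or without the animal as a random effect, over mice with a library in both tissues, and over genes with a mean of at least 1 CPM in both tissues. In the list of 10 chemokines and adhesion molecules the median difference was -0.27, but it was 0.14 without muscle vehicle mouse 4, -0.46 without muscle vehicle mouse 1 and -0.49 without hypothalamus vehicle mouse 4. It was -0.17 by limma-voom, -0.45 over mice with a library in both tissues and -0.53 with muscle oxaliplatin mouse 5 set to vehicle. Cxcl12, a chemokine made by endothelial and stromal cells, rose in hypothalamus (log2 fold change 1.31 ± 0.15, adjusted p = 0.0136) and had a difference of -0.98 ± 0.19 (adjusted p = 0.0609).

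Acute phase genes had a median difference of -0.83 over 13 genes, with medians of 0.69 in hypothalamus and 0.12 in muscle. The median difference was -0.50 without muscle vehicle mouse 4, -0.54 by limma-voom, with or without the animal as a random effect, and -0.42 with the animal as a fixed block. Lrg1 was the 1 member of 13 whose difference edgeR called, against 0.0812% of all genes. DESeq2, which called 1.23% of all genes, called Lcn2 as well. Of 14 tested in hypothalamus, Lrg1, Lcn2, Il1r1 and Cebpd were called higher, against 0.148% of all genes, while none was called in muscle. Lcn2, the iron-scavenging lipocalin, was at 0.0684, 0.324 and 0.0738 CPM in vehicle hypothalamus and at 11.7, 6.54, 3.96 and 3.13 CPM after oxaliplatin (log2 fold change 5.31 ± 0.71, adjusted p = 0.0458). These vehicle counts were under the filter's minimum, so Lcn2 was kept for testing in hypothalamus through its oxaliplatin libraries. In muscle the vehicle libraries split into 0.985 and 0.774 CPM in mice 1 and 2 and 8.66 and 7.04 CPM in mice 3 and 4, with 2.14 to 5.20 CPM after oxaliplatin between them. The difference of -5.62 ± 1.15 missed the threshold (adjusted p = 0.0720) and was called without hypothalamus oxaliplatin mouse 5 (-5.84, adjusted p = 0.0283). Over the 16 omissions of a library its adjusted p ran up to 0.257.

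Cebpd, a transcription factor of the acute phase response, rose in hypothalamus by 2.55 ± 0.34 on the log2 scale (adjusted p = 0.0483) and had 1.05 ± 0.57 in muscle. It overlaps Spidr on the opposite strand over 562 exon bases, and Spidr had -0.15 in hypothalamus. Il1r1, the interleukin 1 receptor, rose in hypothalamus by 1.32 ± 0.19 (adjusted p = 0.0400) and had 0.49 ± 0.21 in muscle, and the difference was -0.83 ± 0.30 (adjusted p = 0.387).

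Of 34 glucocorticoid-responsive genes tested in both tissues, 33 were above 0 in hypothalamus and 28 in muscle, with medians of 0.97 and 0.43 against 0.01 and -0.01 for all genes. No difference was called by edgeR or limma-voom. DESeq2 called 4, against 1.23% of all genes, all with the higher effect in hypothalamus (Dusp1, Lcn2, Map3k6 and Sult1a1). An unadjusted p under 0.05 in that direction was reached by 8 of 34, against 5.56% of all genes, and the median difference was -0.57. With muscle oxaliplatin mouse 5 set to vehicle the median was -1.14. Lcn2 and Cebpd, also in this list, were the members called in hypothalamus, against 0.148% of all genes called higher there. Lcn2 had vehicle counts under the filter's minimum. Without hypothalamus oxaliplatin mouse 5, 23 of 34 were called higher in hypothalamus, against 2.12% of all genes, and 4 had a called difference (Arl4d, Lcn2, Map3k6 and Sult1a1), against 1.04%.

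The library numbered 5 had the lowest of the 4 oxaliplatin levels of this list in hypothalamus and the highest of 5 in muscle. The number is not known to mark 1 animal in both tissues, and the muscle library has the treatment entry that reads vehicle. Oxaliplatin mice 2 to 5 stood at 1.43, 1.49, 1.01 and 0.41 log2 units above the vehicle mean in hypothalamus, and mice 1 to 5 at 0.58, 0.05, 0.20, 0.27 and 1.26 in muscle. Muscle vehicle libraries ran from -0.47 to 0.26 and overlapped with oxaliplatin mice 2 and 3, while the hypothalamus vehicle libraries, at -0.10 to 0.11, did not overlap.

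Sult1a1, a sulfotransferase, was at 5.34, 7.23 and 7.79 CPM in vehicle hypothalamus and at 35.5, 38.4, 27.4 and 6.46 CPM in oxaliplatin mice 2 to 5, so that mouse 5 was at the vehicle level. Fkbp5, a cochaperone of the glucocorticoid receptor, was at 31.4, 32.5 and 37.4 CPM with vehicle and 137, 112, 65.7 and 34.6 CPM with oxaliplatin. In muscle Fkbp5 had 9.27, 9.28, 15 and 13.4 CPM with vehicle and 55.5, 16.2, 28.9, 29.6 and 95.6 CPM with oxaliplatin, with mouse 5 the highest. Tsc22d3, which encodes the glucocorticoid-induced leucine zipper, was at 615 CPM in muscle oxaliplatin mouse 5 against 318 to 371 CPM in the other 4. In hypothalamus mouse 5 had 88.5 CPM, within the vehicle range of 63.7 to 90.2 CPM. Fkbp5 had a difference of 0.58 ± 0.67 and Tsc22d3 of -0.69 ± 0.38.

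**Figure D4:**
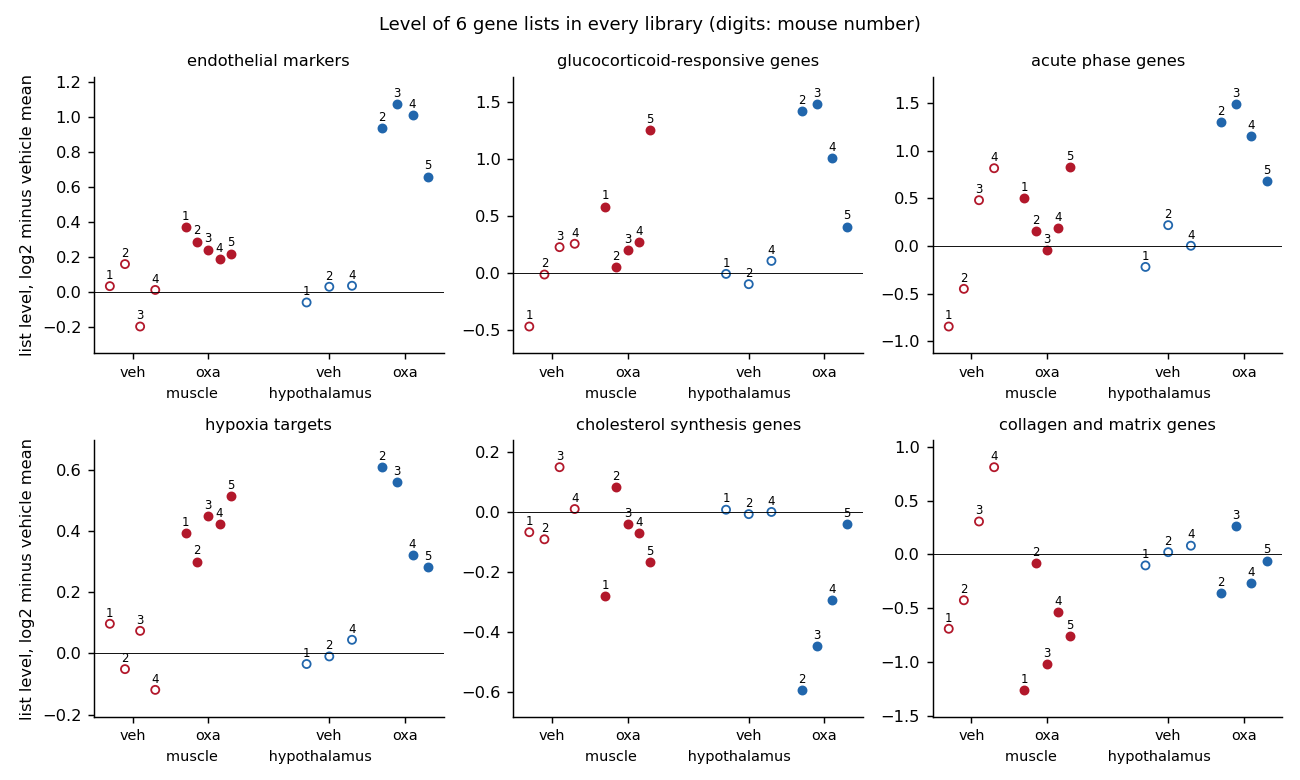
Mean log2 level of 6 gene lists in every library, relative to the mean of the vehicle libraries of that tissue; digits are mouse numbers, open circles vehicle, filled circles oxaliplatin, red muscle and blue hypothalamus. For the glucocorticoid-responsive genes the oxaliplatin library numbered 5 is the highest in muscle (1.26) and the lowest of the 4 in hypothalamus (0.41). A number is not known to mark 1 animal in both tissues. Endothelial genes are at 0.66 to 1.08 in oxaliplatin hypothalamus and 0.19 to 0.37 in oxaliplatin muscle.

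Of 25 hypoxia targets, edgeR and limma-voom called Pfkfb3, with the higher effect in muscle, and Vegfa, with the higher effect in hypothalamus. Of all genes they called 0.0812% and 0.0959%. DESeq2 called 5 of the 25, against 1.23% of all genes. An unadjusted p under 0.05 was reached by 4 with the higher effect in muscle, against 3.68% of all genes. In the other direction it was reached by 6, against 5.56%. The list median of the difference was -0.21. Slc2a1, the glucose transporter of the blood-brain barrier, rose in hypothalamus from 120, 121 and 131 CPM to 353, 352, 289 and 203 CPM (log2 fold change 1.27 ± 0.18, adjusted p = 0.0425). Muscle had 9.76 to 11.2 CPM with vehicle and 10.4 to 15.1 CPM with oxaliplatin, which overlapped, and the difference was -0.96 ± 0.22 (adjusted p = 0.0911). Car9, a carbonic anhydrase of the cell surface, had a difference of 2.87 ± 0.65 (adjusted p = 0.0878). It was at 0.684 to 0.960 CPM in vehicle hypothalamus and 0.0384 to 0.411 CPM after oxaliplatin, and at 0.574 to 1.01 CPM in vehicle muscle and 0.919 to 3.19 CPM after oxaliplatin. In hypothalamus the vehicle counts of Car9 were above the filter's minimum and its oxaliplatin counts near or under it. Without hypothalamus oxaliplatin mouse 5, Car9 was called with the higher effect in muscle (3.14, adjusted p = 0.0404). Over the 16 omissions of a library its adjusted p ran up to 0.279.

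Of 21 circadian clock genes, Nr1d1 was the 1 with a difference called by edgeR and limma-voom, against 0.0812% and 0.0959% of all genes. DESeq2, which called 1.23% of all genes, also called Cry1. An unadjusted p under 0.05 was reached by 4 genes with the higher effect in hypothalamus, against 5.56% of all genes, and by 4 with the higher effect in muscle, against 3.68%. Cry1, a repressor of the clock, had a difference of -0.82 ± 0.19 (adjusted p = 0.0972), with log2 fold changes of -0.46 in muscle and 0.37 in hypothalamus. Per2 had -0.49 ± 0.19 (adjusted p = 0.410) and Tef, a D-box factor, -0.59 ± 0.21 (adjusted p = 0.342). The sources used here do not give the time of day at collection.

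Cholesterol synthesis genes had a median difference of 0.29 over 24 genes. In hypothalamus 1 of the 24 was above 0 (median -0.32), and in muscle 7 (median -0.07). No member had a difference called by edgeR, DESeq2 or limma-voom, and edgeR called none in hypothalamus. An unadjusted p under 0.05 for the difference was reached by 4 of the 24, against 9.24% of all genes. Without hypothalamus oxaliplatin mouse 5, 10 of 25 were called lower in hypothalamus, against 1.36% of all genes, and none for the difference. Sc5d, a late enzyme of the pathway, was at 72.1, 65.7 and 68.8 CPM in vehicle hypothalamus and 39.7, 47.0, 43.1 and 66.9 CPM in oxaliplatin mice 2 to 5. Acat2, which condenses acetyl-CoA, fell in muscle (log2 fold change -0.72 ± 0.12, adjusted p = 0.0486) and had -0.24 ± 0.11 in hypothalamus.

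Collagen and matrix genes had a median difference of -0.76 over 34 genes, below 0 for 31, with medians of -0.72 in muscle and -0.18 in hypothalamus. The median difference was -0.38 without muscle vehicle mouse 4, -0.46 with the animal as a fixed block and -0.51 with the mouse number as a block. EdgeR and limma-voom called no difference. DESeq2 called Col4a1 (1 of 34, against 1.23% of all genes), as did edgeR with the mouse number block. With the higher effect in hypothalamus, 7 of 34 reached an unadjusted p under 0.05, against 5.56% of all genes. The muscle vehicle libraries were wide apart for this list, at -0.69 and -0.43 in mice 1 and 2 and 0.31 and 0.81 in mice 3 and 4, against -1.26 to -0.08 after oxaliplatin. Fibroblast markers moved with it in muscle vehicle, at -0.77, -0.50, 0.42 and 0.86, as did macrophage markers, at -1.06, -0.57, 0.42 and 1.22, and summed to 1173 to 4521 CPM and 101 to 561 CPM in vehicle muscle and to 1012 to 2142 CPM and 88.0 to 212 CPM after oxaliplatin. The share of counts from mitochondrially encoded genes was 20.9% and 23.2% in muscle vehicle mice 1 and 2 and 12.2% and 13.5% in mice 3 and 4. The part of these markers and of this share in the result was not tested. Col4a1, a basement membrane collagen, rose in hypothalamus (log2 fold change 1.35 ± 0.17, adjusted p = 0.0215) and had a difference of -1.06 ± 0.23 (adjusted p = 0.0720).

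Of 30 p53 targets none had a difference called by edgeR, DESeq2 or limma-voom. An unadjusted p under 0.05 was reached by 5 of them, against 9.24% of all genes. The medians were 0.32 in muscle and 0.21 in hypothalamus. Bax, which promotes apoptosis, had 0.69 ± 0.16 in muscle and 0.10 ± 0.16 in hypothalamus, a difference of 0.60 ± 0.24 (adjusted p = 0.454). Immediate early genes had medians of 0.34 in muscle and 0.48 in hypothalamus over 26 genes. No difference was called by edgeR or limma-voom, and DESeq2 called Dusp1 (1 of 26, against 1.23% of all genes). An unadjusted p under 0.05 was reached by 5, against 9.24% of all genes. Maff, a small MAF factor, was at 1.70 to 1.76 CPM in vehicle hypothalamus and at 13.9, 16.8, 11.9 and 2.92 CPM after oxaliplatin. Its difference of -2.10 ± 0.62 (adjusted p = 0.224) was called without hypothalamus oxaliplatin mouse 5 (-2.41, adjusted p = 0.00289). Over the 16 omissions of a library the adjusted p of Maff ran up to 0.454. The 40 cytosolic ribosomal protein genes were above 0 in 39 cases in muscle and in all 40 in hypothalamus, with medians of 0.20 and 0.25. No difference was called by edgeR, DESeq2 or limma-voom, and 0 reached an unadjusted p under 0.05.

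No member of the lists for crosslink and excision repair (27 genes), platinum transporters (16), metallothioneins and zinc transporters (14), the unfolded protein response (25), fatty acid oxidation (29), the nuclear-encoded respiratory chain (38), proteasome subunits (31), interferon-stimulated genes (25) and FOXO and atrophy genes (27) had a difference called by edgeR, DESeq2 or limma-voom, and 0 to 2 members of each reached an unadjusted p under 0.05. Over all genes an unadjusted p under 0.05 was reached by 9.24%. Of the 24 NRF2 and glutathione genes, Nqo1, a quinone reductase, was nearest. It was at 26.7 to 30.3 CPM in vehicle muscle and 14.2 to 21.6 CPM after oxaliplatin, with a difference of -1.32 ± 0.29 (adjusted p = 0.0878). This difference was called without hypothalamus oxaliplatin mouse 5 (-1.51, adjusted p = 0.00272). Over the 16 omissions of a library its adjusted p ran up to 0.243.

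**Figure D5:**
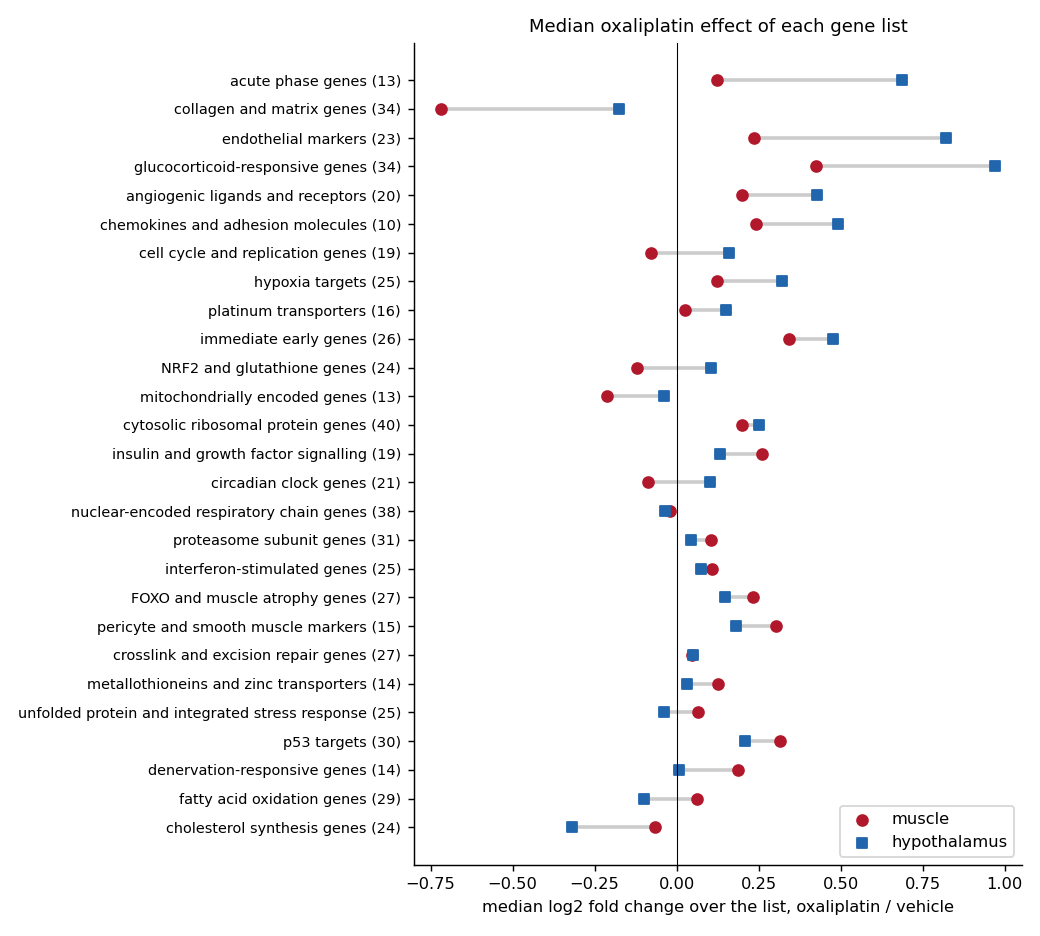
Median log2 fold change of oxaliplatin over vehicle for each gene list of at least 10 genes tested in both tissues, red circles muscle and blue squares hypothalamus, with the number of genes in brackets and lists sorted by the median difference between tissues in the edgeR fit. Acute phase, endothelial and glucocorticoid-responsive genes have medians of 0.69, 0.82 and 0.97 in hypothalamus against 0.12, 0.24 and 0.43 in muscle, and collagen and matrix genes lie lowest in muscle at -0.72.

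Markers of other cell types moved with the groups in places. Erythroid markers averaged -1.69, -2.16, -0.81 and 1.30 log2 units from the vehicle mean in hypothalamus oxaliplatin mice 2 to 5 and -2.30, 1.42, 0.26, 1.75 and -2.26 in muscle oxaliplatin mice 1 to 5. Microglia and macrophage markers stood at -0.62 to -0.27 in oxaliplatin hypothalamus, against -0.32 to 0.24 with vehicle. Oligodendrocyte markers summed to 4988 to 5923 CPM in vehicle hypothalamus and 2629 to 5477 CPM after oxaliplatin. Their part in the differences was not tested.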

How the data were processed

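RNA-seq tables of muscle and hypothalamus were used, with estimated counts per gene deposited by the authors; 16 libraries were analysed and the 7 of fat were left out. Per the submitters' processing notes STAR 2.5.1a, Partek and DESeq2 were used, with no role given. The sources used here do not give the genome build, the strand setting or how reads were assigned to genes. Gene starts in the tables equal those of GENCODE M21 (GRCm38) for 99.5% of muscle and 99.4% of hypothalamus genes, and coordinates are given on that build; promoters are from RefSeq on GRCm38.p6.

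Tables of 20628 and 25623 genes shared 19145 symbols. Counts were rounded, genes were kept by filterByExpr (minimum count 10, total 15) within each tissue, and TMM factors were computed within each tissue. The difference of effects was fitted over the 16 libraries with edgeR 4.0.16 (quasi-likelihood test, robust dispersion, 4 groups, no block; R 4.3.3), and each tissue alone with the same test. P-values were adjusted by Benjamini-Hochberg over all genes tested, with a threshold of 0.05, and SE is the log2 fold change over the square root of F. CPM use the TMM factors. No pair of libraries of a group looked like 1 library deposited in duplicate (lowest chi-square per degree of freedom 7.37 over 25 pairs). The fit was run on simulated counts in which 100 genes were changed by 1 log2 unit and 100 by 2, in muscle only. It called 25% and 95% of them, and 0.03% of unchanged genes. Most simulated differences of 1 log2 unit were therefore missed.

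Members and gene lists were chosen with earlier results of these data known. Genes were named by rule: up to 12 per direction called for the difference with a mean of at least 1 CPM in a group, or the 5 of smallest p where fewer than 5 were called in a direction; genes called in both tissues or nearest to it; the 4 of smallest p in each list; and 19 genes of interest from those earlier results. Ptprb, Robo4, Arl4d, Emcn, Tek, Tie1, Cebpd, Higd1b and the overlapping genes Thra and Spidr were named after their values were seen. Alternatives were DESeq2 1.42.0, limma-voom 3.58.1, other scalings and filters, a replicate block, matched mice, mouse 5 as vehicle, unrounded counts and each library left out.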

Additional observations from a re-analysis of the deposited data

Results flagged for a closer look

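The response differed between the tissues, by the test of the difference itself, for 11 genes. The muscle effect minus the hypothalamus effect, on the log2 scale, was -2.39 for Lrg1, -2.05 for Vwf, -1.5 for Cdk19, -1.3 for Smtnl2, -1.23 for Vegfa, -1.22 for Flt1, -1.17 for Ly6c1 and -1.05 for Abcc9. It was 1.47 for Pfkfb3, 1.59 for Rragb and 1.83 for Nr1d1.

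In 9 of 198 groups of values the highest or lowest library lay far from the others by Dixon's test, which chance gives in about 1 of 20 groups. Only groups of 4 or 5 libraries were tested, so the 3 vehicle libraries of hypothalamus were not. In muscle these were Slc2a1 at 11.2 CPM in vehicle mouse 4, Stard4 at 1.47 CPM in vehicle mouse 3, Gtse1 at 1.84 CPM and Apold1 at 6.14 CPM in oxaliplatin mouse 1, and Tsc22d3 at 615 CPM, Depp1 at 234 CPM and Errfi1 at 30.7 CPM in oxaliplatin mouse 5. In hypothalamus they were Zmat3 at 158 CPM and Fbxo32 at 19.8 CPM, both in oxaliplatin mouse 5.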

How the results depend on the processing

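The count of 11 called differences was 9 to 14 with TMM over all 16 libraries, DESeq2 size factors, limma-voom, no filter on low counts, a fold threshold, unrounded counts or a random effect of the animal. It was 167 with the DESeq2 Wald test, 17 with at least 1 CPM in both tissues, 8 with matched mice and 4, all higher in hypothalamus, with muscle oxaliplatin mouse 5 set to vehicle. The count for muscle (24) was 254 with DESeq2, 44 with limma-voom, 42 with no filter, 2 with matched mice and 0 with mouse 5 as vehicle (edgeR; 701 at an unadjusted p under 0.05). For hypothalamus (28) it was 262 and 116 with DESeq2 and limma-voom. Genes called in both tissues (2) numbered 22, 5 and 1 with DESeq2, limma-voom and the fold threshold, and 0 with matched mice or mouse 5 as vehicle. Leaving out 1 library gave 3 to 141 called differences, 2 to 17 genes in muscle, 0 to 655 in hypothalamus (the 0 without vehicle mouse 4 by edgeR, 1152 at an unadjusted p under 0.05) and 0 to 5 in both. Same-numbered libraries of the tissues deviated with an r of -0.11 to 0.08 over 7 pairs, 1 of 7 fitting its own number best. Libraries of 1 animal need not deviate together, so these values cannot tell whether a number marks 1 animal. The numbers were not taken as pairs. With the animal as a fixed replicate block, edgeR called 0 differences (855 at an unadjusted p under 0.05) and limma-voom with a random effect 9; with the mouse number as block there were 6 differences, 3 genes in muscle, 37 in hypothalamus and 0 in both. Of 66 genes, 57 kept the sign of their difference under every setting that could be run for them (13 for 60 genes, 12 for 6) and 16 omissions. With mouse 5 as vehicle the difference reversed to -1.18 for Fkbp5, -2.09 for Cdkn1a, -0.14 for Sesn1, -0.39 for Errfi1, -0.62 for Mt1, -1.34 for Mt2 and -0.62 for Icam1; Icam1 was also -0.13 with the animal block and -0.20 with matched mice. Omitting 1 library gave -0.17 to 0.29 for Icam1, -0.84 to 0.26 for Gnmt, -0.305 to 0.00678 for Per1 and -0.00742 to 0.314 for Errfi1. The cause was not tested.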
